A study of Mus musculus with 6 samples.

Results

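Atf3, Atf4, Ddit3, Trib3, Chac1, Asns, Hspa5, Xbp1, Herpud1 and Gdf15 are genes that cells switch on when proteins misfold in the endoplasmic reticulum (ER) or when amino acids run short. They were listed by name and found by their NCBI gene numbers, and all 10 were among the 18305 genes of the count tables and passed the filter on low counts. Their RNA was compared across 3 kinds of cultured cells of KM mice, 2 libraries each. MEF were fibroblasts of embryos of 12.5 or 13.5 days post coitum at passages 3 to 5. CiLC came from such fibroblasts, exposed to small molecules from 24 hours after seeding in 6-well plates. The sources used here give neither the names and doses of the molecules nor the length of exposure. LC were labelled as Leydig cells, the androgen-making cells of the testis, prepared from testis tissue and at passages 0 to 1, though reads of the defining genes Cyp17a1 and Lhcgr were near 0 in them. All were cultured at 37 °C. The series asks how closely the chemically induced cells resemble Leydig cells. Nothing in the labels ties the libraries of one group to different cultures or animals. Every p-value therefore rests on the spread between these libraries alone, and that spread may be technical.

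The unfolded protein response has 3 sensors in the ER membrane, PERK, IRE1 and ATF6. PERK phosphorylates the initiation factor eIF2 alpha, as does GCN2 when amino acids are scarce. That slows most translation while raising translation of ATF4, a transcription factor that induces amino acid genes such as Asns, its partners Ddit3 (CHOP) and Atf3, and feedback genes such as Trib3 and Chac1. IRE1 splices the Xbp1 RNA, and XBP1 and ATF6 raise ER chaperones and degradation factors such as Hspa5 (BiP) and Herpud1. Counts per gene show neither the translation of Atf4 nor the splicing of Xbp1. Steroid-making cells carry an extensive smooth ER, which makes ER genes of interest in a conversion towards Leydig cells.

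Promoter sequences are printed for Atf3, Chac1, Asns, Herpud1 and Hspa5, since they hold letters of known stress elements before the gene start. They come from RefSeq (GRCm38.p6), which is not the mm9 build of the counts, and each shows the 250 bases before the start, 5′ to 3′ along the gene, with matches in capitals. All 10 genes matched the promoter table, with 11 windows among them. Members are counted by gene and the background by window, which are unlike units. The windows searched also held the first 50 transcribed bases, on both strands. TGATGNAA, the core of the composite sites that ATF4 binds with C/EBP partners, was in the windows of 5 of 10 genes (Atf3, Trib3, Chac1, Asns and Herpud1), against 3.97% of 32851 windows in the table. The match of Trib3 lay after its start. The matches of Atf3, Chac1 and Herpud1 were on the opposite strand, so the printed strand reads TTGCATCA there. The ER stress response element, CCAAT and CCACG separated by 9 bases, was in the window of Hspa5 and in 0.119% of all windows. TGACGTG, a core bound by XBP1 and ATF6, was also in Hspa5 only among the 10, and in 2.01% of windows. TGACGTCA, the cyclic AMP response element, was in none of the 10 and in 1.79% of windows. A shorter ER stress element, ATTGG and CCACG separated by 1 base, was added after the sequences were seen. It was in Herpud1, overlapping no other match, and in 0.0365% of windows.
Atf3: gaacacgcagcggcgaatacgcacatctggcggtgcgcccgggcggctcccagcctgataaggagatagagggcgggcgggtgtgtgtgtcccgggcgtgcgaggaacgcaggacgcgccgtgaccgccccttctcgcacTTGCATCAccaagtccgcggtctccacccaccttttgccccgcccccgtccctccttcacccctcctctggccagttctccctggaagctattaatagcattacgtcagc
Chac1: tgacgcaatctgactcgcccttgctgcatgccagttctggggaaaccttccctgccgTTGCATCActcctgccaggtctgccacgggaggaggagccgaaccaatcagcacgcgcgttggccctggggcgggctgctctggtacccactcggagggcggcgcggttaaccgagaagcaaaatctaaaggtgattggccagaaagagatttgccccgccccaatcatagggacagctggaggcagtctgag
Asns: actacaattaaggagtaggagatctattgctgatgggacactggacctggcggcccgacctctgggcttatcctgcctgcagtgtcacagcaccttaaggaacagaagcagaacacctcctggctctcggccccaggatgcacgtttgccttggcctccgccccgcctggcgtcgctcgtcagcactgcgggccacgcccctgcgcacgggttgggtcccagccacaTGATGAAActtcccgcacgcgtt
Herpud1: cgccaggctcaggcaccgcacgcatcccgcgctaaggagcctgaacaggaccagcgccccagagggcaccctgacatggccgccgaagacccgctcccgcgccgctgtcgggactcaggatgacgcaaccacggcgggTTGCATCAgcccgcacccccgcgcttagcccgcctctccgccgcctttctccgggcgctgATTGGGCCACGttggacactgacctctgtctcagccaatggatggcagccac
Hspa5: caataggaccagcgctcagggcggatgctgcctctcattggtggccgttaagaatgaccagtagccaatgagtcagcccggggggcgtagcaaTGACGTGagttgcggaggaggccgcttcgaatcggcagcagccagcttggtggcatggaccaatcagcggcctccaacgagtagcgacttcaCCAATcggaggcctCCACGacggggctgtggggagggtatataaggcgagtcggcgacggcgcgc
The first 4 windows lie on chr1:191183334-191183583 (minus strand), chr2:119350992-119351241 (plus strand), chr6:7693210-7693459 (minus strand) and chr8:94386179-94386428 (plus strand), and that of Hspa5 on chr2:34771840-34772089 (plus strand). A match of letters is a description of the sequence and does not show that a factor binds there.

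The 10 genes did not move together. In CiLC against MEF, Atf4, Asns, Hspa5, Xbp1 and Herpud1 were higher, Atf3, Ddit3, Chac1 and Gdf15 were lower and Trib3 was not called, that is its adjusted p in edgeR's quasi-likelihood test was not under 0.05. The background was 51.6% of 14581 genes tested called in this comparison, 26.1% as higher and 25.5% as lower. In LC against MEF, Atf4 and Xbp1 were higher, Atf3, Ddit3, Trib3, Chac1, Asns and Herpud1 were lower, and Hspa5 and Gdf15 were not called, beside 70.7% of all genes called, 35.7% as higher and 35.0% as lower. In CiLC against LC, Atf3, Trib3, Asns, Hspa5 and Herpud1 were higher, Atf4, Chac1, Xbp1 and Gdf15 were lower and Ddit3 was not called, beside 70.6% of all genes called, 35.0% as higher and 35.6% as lower. The median log2 fold change of the 10 genes was 0.09, -0.34 and 0.07 in these comparisons, against 0.005, -0.008 and 0.005 for all genes. These are counts of 10 chosen genes with no test of the list, and the comparisons share libraries. The smaller changes rest on how alike the libraries of a group were. When edgeR was given a biological coefficient of variation of 0.1, all 5 genes higher in CiLC than in MEF lost their call (adjusted p = 0.0719 for Atf4, 0.0798 for Asns, 0.49 for Hspa5, 0.366 for Xbp1 and 0.162 for Herpud1). So did Herpud1 in LC against MEF (0.138), and Atf4, Chac1 and Hspa5 in CiLC against LC (0.28, 0.198 and 0.449).

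**Figure D1:**
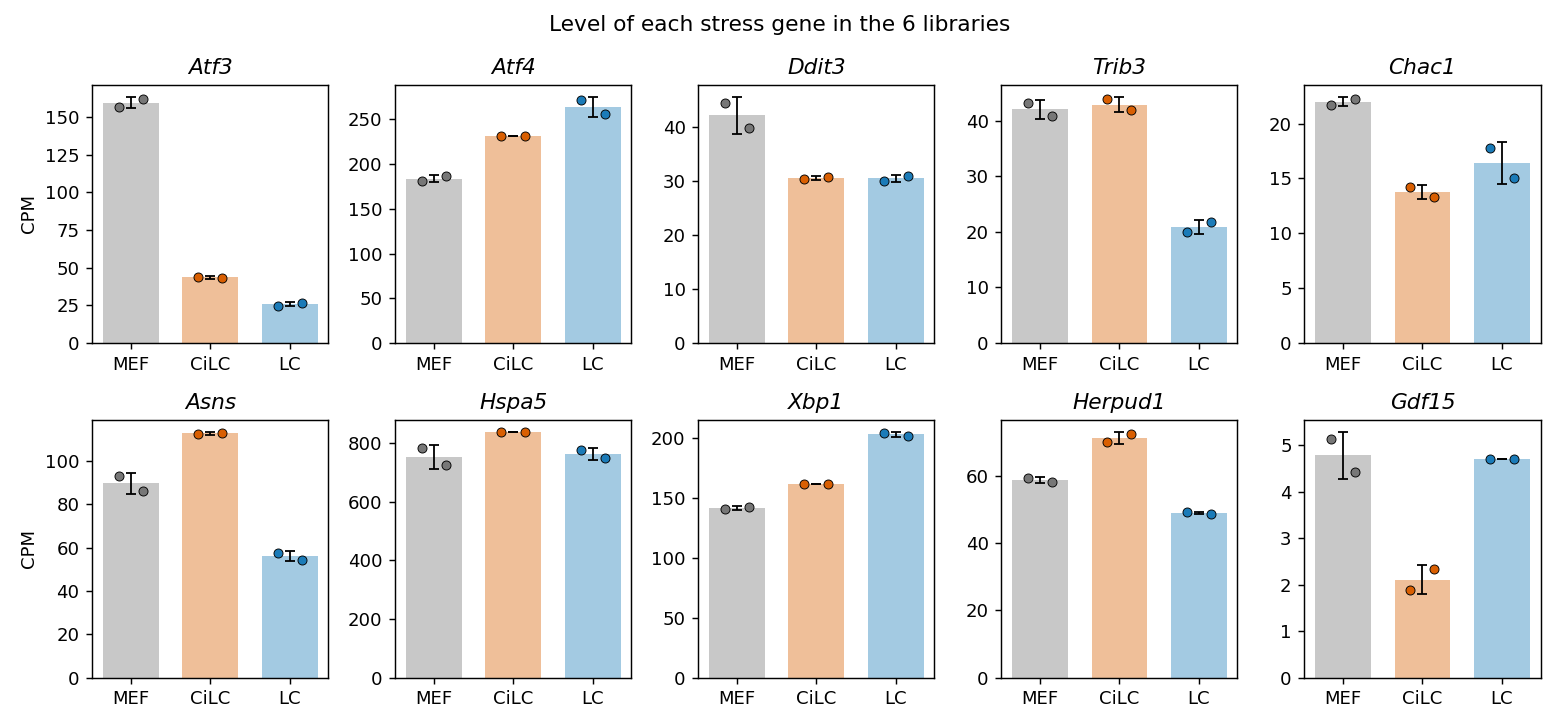
Level of each of the 10 genes in CPM (reads scaled to the same library size, linear axis from 0 with a separate scale for each gene). Points are the 2 libraries of a group, bars the mean and error bars the SD. Mean Atf3 went from 159.6 CPM in MEF to 43.5 in CiLC and 25.8 in LC, while Hspa5 lay between 724.7 and 837.7 CPM in the 6 libraries.

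Atf4 and Ddit3, the transcription factors at the centre of the pathway, went in opposite directions against MEF. Atf4 (NCBI gene 11911) stood at 181.0 and 186.2 CPM in the MEF libraries, 231.3 and 231.5 in CiLC, and 271.5 and 256.2 in LC. The groups did not overlap, with MEF lowest and LC highest. Atf4 was 1.26-fold higher in CiLC than in MEF (log2 fold change 0.33 ± 0.047 SE, adjusted p = 2.68e-06 by edgeR). It was 1.44-fold higher in LC than in MEF (log2 fold change 0.52 ± 0.047 SE, adjusted p = 9.46e-10 by edgeR, and log2 fold change 0.32 with quantile normalization). The step from CiLC to LC was small (log2 fold change -0.19 ± 0.047 SE, adjusted p = 0.000984 by edgeR), and with that normalization it was 0.02 with a limma adjusted p of 0.693. Ddit3 (13198), which encodes CHOP, a factor tied to cell death under prolonged stress, stood at 44.6 and 39.8 CPM in MEF, 30.4 and 30.9 in CiLC, and 30.04 and 31.0 in LC. Both MEF libraries were above all others, and CiLC and LC overlapped. The log2 fold change was -0.46 ± 0.067 SE in CiLC and -0.47 ± 0.069 SE in LC against MEF (edgeR adjusted p = 3.63e-06 and 2.21e-06). Between CiLC and LC it was 0.00 ± 0.072 SE (edgeR adjusted p = 0.955). All 6 values of Ddit3 were not whole, and its RefSeq span overlaps those of Mbd6 and Mars1, so its counts are uncertain. The span of Hspa5 overlaps that of Rabepk, but its values were whole.

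Against MEF, Atf3 changed most of the 10. This factor (11910) is induced by ATF4 and also, within minutes, by serum, damage and handling. It stood at 157.0 and 162.2 CPM in MEF, 44.1 and 43.0 in CiLC, and 24.8 and 26.8 in LC. The order MEF, CiLC, LC held without overlap. Atf3 was 3.67-fold lower in CiLC than in MEF (log2 fold change -1.87 ± 0.054 SE, adjusted p = 1.27e-18 by edgeR) and 6.18-fold lower in LC than in MEF (log2 fold change -2.63 ± 0.062 SE, adjusted p = 3e-21 by edgeR). It was 1.69-fold higher in CiLC than in LC (log2 fold change 0.75 ± 0.068 SE, adjusted p = 8.5e-10 by edgeR). Among all genes tested, 94.1% had a smaller absolute change than Atf3 in CiLC against MEF and 90.1% in LC against MEF. Only these calls of Atf3 against MEF held among those of the 10 genes when the coefficient of variation was set to 0.4.

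Trib3 and Chac1, which ATF4 and CHOP induce and which feed back on the response, followed different courses. Trib3 (228775), a pseudokinase that dampens ATF4 and AKT signalling, stood at 43.3 and 40.8 CPM in MEF, 43.9 and 41.9 in CiLC, and 20.0 and 21.7 in LC. MEF and CiLC overlapped and both LC libraries were below all others. The log2 fold change was 0.03 ± 0.062 SE in CiLC against MEF (edgeR adjusted p = 0.726), -1.01 ± 0.073 SE in LC against MEF (1.14e-11) and 1.04 ± 0.072 SE in CiLC against LC (6.47e-12). Chac1 (69065), an enzyme that cleaves glutathione, stood at 21.7 and 22.3 CPM in MEF, 14.2 and 13.3 in CiLC, and 17.7 and 15.1 in LC. MEF was highest and CiLC lowest. Chac1 was 1.6-fold lower in CiLC than in MEF (log2 fold change -0.68 ± 0.093 SE, adjusted p = 1.49e-06 by edgeR) and 1.34-fold lower in LC than in MEF (log2 fold change -0.42 ± 0.092 SE, adjusted p = 0.000283 by edgeR). The difference between CiLC and LC (log2 fold change -0.26 ± 0.1 SE, adjusted p = 0.0245 by edgeR) was lost with DESeq2 (adjusted p = 0.175), with upper quartile scaling (0.125), with no filter (0.0569), without CiLC replicate 2 (0.156) and without LC replicate 1 (0.331).

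Asns (27053), which makes asparagine and is a standard readout of ATF4 under amino acid shortage, stood at 93.1 and 86.1 CPM in MEF, 112.2 and 113.1 in CiLC, and 57.6 and 54.4 in LC. CiLC was highest and LC lowest, without overlap. Asns was 1.26-fold higher in CiLC than in MEF (log2 fold change 0.33 ± 0.052 SE, adjusted p = 1.03e-05 by edgeR), 1.6-fold lower in LC than in MEF (log2 fold change -0.68 ± 0.057 SE, adjusted p = 2.45e-10 by edgeR) and 2.01-fold higher in CiLC than in LC (log2 fold change 1.01 ± 0.056 SE, adjusted p = 1.11e-13 by edgeR). Asns and Trib3 were thus the members with the largest rise in CiLC over LC, while the RNA of Atf4 itself was lower in CiLC than in LC in the edgeR fit.

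**Figure D2:**
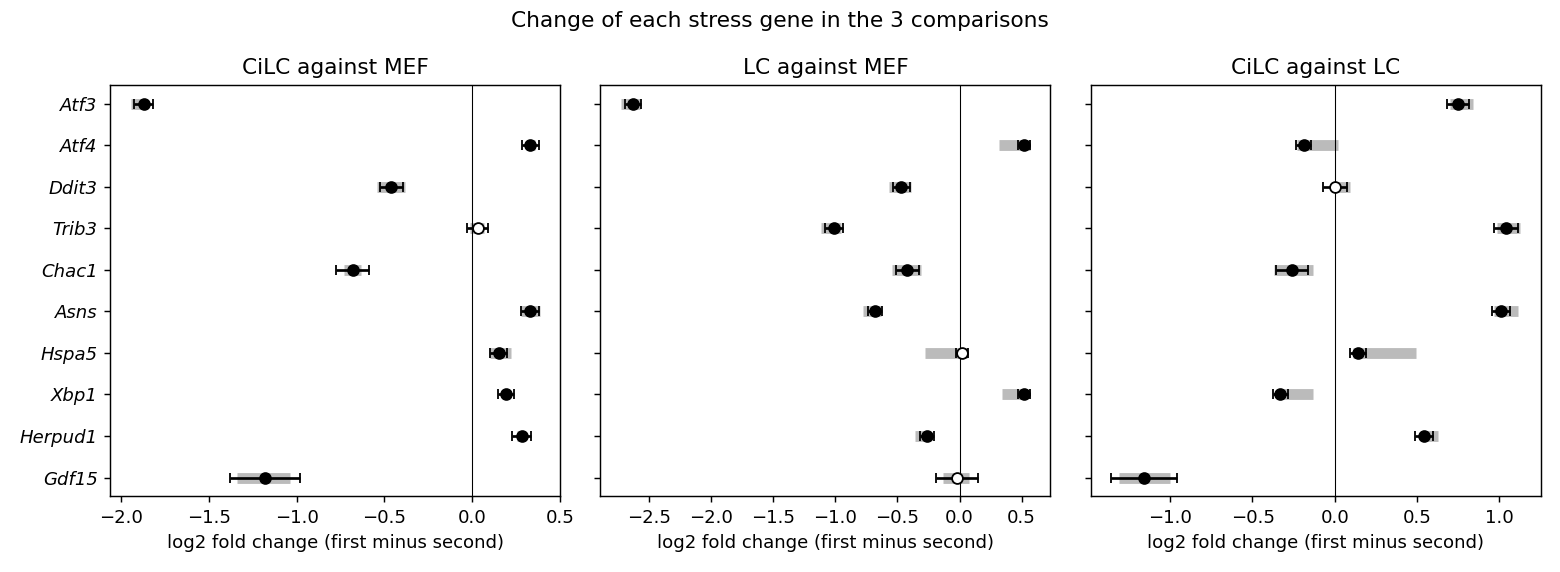
Log2 fold change (x axis, first group minus second; the scale differs between panels) of each gene in the 3 comparisons. Points are edgeR estimates with SE, filled where called and open where not, and grey bars span all 15 other settings and the main one. Atf3 lies at -1.87 and -2.63 against MEF, and the grey bar of Hspa5 in LC against MEF runs from -0.276 to 0.064.

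Among the ER genes, Hspa5 had the narrowest range of the 10. Hspa5 (14828), the main chaperone of the ER lumen, stood at 782.2 and 724.7 CPM in MEF, 837.7 and 837.7 in CiLC, and 776.2 and 748.4 in LC. The CiLC libraries were above all others, and MEF and LC overlapped. Hspa5 was 1.11-fold higher in CiLC than in MEF (log2 fold change 0.15 ± 0.047 SE, adjusted p = 0.00929 by edgeR). In CiLC it was also 1.1-fold higher than in LC (log2 fold change 0.14 ± 0.047 SE, adjusted p = 0.0138 by edgeR, and log2 fold change 0.494 with quantile normalization). The first of these calls was lost without CiLC replicate 1 (adjusted p = 0.0767), CiLC replicate 2 (0.0713) or MEF replicate 2 (0.146), and the second without CiLC replicate 1 (0.0685), CiLC replicate 2 (0.0653) or LC replicate 2 (0.0906). Between LC and MEF no difference was called (log2 fold change 0.02 ± 0.047 SE, adjusted p = 0.764 by edgeR), but quantile normalization gave a call as lower in LC (log2 fold change -0.276, limma adjusted p = 6.76e-05).

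Xbp1 (22433), the factor downstream of IRE1, stood at 140.2 and 142.6 CPM in MEF, 161.6 and 161.6 in CiLC, and 204.2 and 201.3 in LC. The order MEF, CiLC, LC held without overlap, as for Atf4. Xbp1 was 1.14-fold higher in CiLC than in MEF (log2 fold change 0.19 ± 0.046 SE, adjusted p = 0.00128 by edgeR) and 1.43-fold higher in LC than in MEF (log2 fold change 0.52 ± 0.046 SE, adjusted p = 6.82e-10 by edgeR). It was 1.25-fold lower in CiLC than in LC (log2 fold change -0.33 ± 0.046 SE, adjusted p = 1.08e-06 by edgeR). With quantile normalization the differences from LC were smaller, 0.341 against MEF and -0.132 for CiLC against LC, and were still called. Herpud1 (64209), which brings proteins to the ubiquitin ligase of ER-associated degradation, stood at 59.4 and 58.2 CPM in MEF, 70.1 and 72.6 in CiLC, and 49.3 and 48.8 in LC. Like Asns it was highest in CiLC and lowest in LC. The log2 fold change was 0.28 ± 0.053 SE in CiLC against MEF (edgeR adjusted p = 0.00011), -0.26 ± 0.057 SE in LC against MEF (0.000282) and 0.54 ± 0.055 SE in CiLC against LC (7.99e-09).

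Gdf15 (23886), a secreted stress cytokine that CHOP and p53 induce, had few reads. It had 98 and 85 reads in MEF, 37 and 46 in CiLC and 81 and 80 in LC, which is 5.14 and 4.42, 1.88 and 2.33, and 4.70 and 4.71 CPM. Both CiLC libraries were below all others, and MEF and LC overlapped. Gdf15 was 2.26-fold lower in CiLC than in MEF (log2 fold change -1.18 ± 0.2 SE, adjusted p = 2.15e-05 by edgeR) and 2.23-fold lower than in LC (log2 fold change -1.16 ± 0.2 SE, adjusted p = 2e-05 by edgeR). With single libraries left out, the log2 fold change against MEF ran from -1.341 to -1.036. LC against MEF gave -0.02 ± 0.17 SE (edgeR adjusted p = 0.911).

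**Figure D3:**
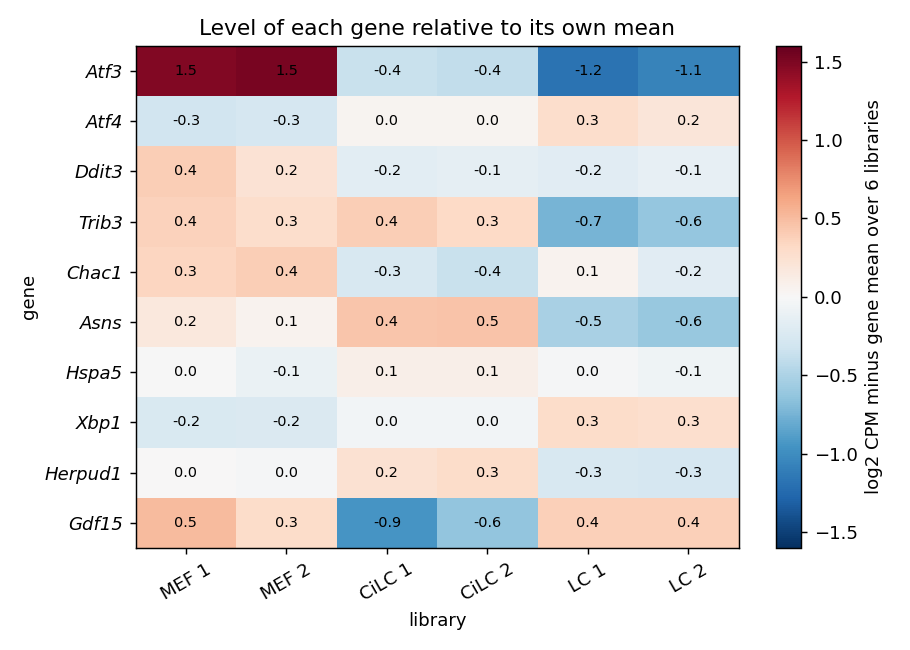
Log2 CPM of each gene minus its own mean over the 6 libraries (colour and printed value), by library. Atf4 and Xbp1 are lowest in MEF and highest in LC, Asns and Herpud1 are highest in CiLC and lowest in LC, and Gdf15 is lowest in CiLC, at -0.94 and -0.63.

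Across the wider pathways, 12 lists with 143 genes were read in the same fit. Of these, 55 rose and 35 fell in CiLC against MEF, 69 and 48 in LC against MEF, and 51 and 65 in CiLC against LC, beside the shares of all genes given above. Levels are means ± SD (n = 2) in the order MEF, CiLC, LC. Among stress sensors and the eIF2 alpha cycle, CiLC against MEF gave 6 higher and 2 lower of 12 (median log2 fold change 0.12), and LC against MEF 3 and 3. With the coefficient of variation set to 0.1 these were 3 and 1, and 3 and 0, and with quantile normalization 5 were lower in LC against MEF. Ern1, which encodes IRE1, rose in the order of its target Xbp1, at 21.8 ± 0.445, 30.1 ± 0.752 and 47.9 ± 0.8 CPM. Eif2ak3, which encodes PERK, stood at 45.6 ± 1.26, 57.5 ± 2.37 and 37.4 ± 0.524 CPM, highest in CiLC and lowest in LC, as Asns and Herpud1 were. Ppp1r15a (GADD34), an ATF4 and CHOP target that restores eIF2 alpha, was lowest in CiLC, at 122 ± 11.1, 75.7 ± 6.39 and 129 ± 0.134 CPM.

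Other regulators and targets of the integrated stress response gave 7 higher and 2 lower of 12 in CiLC against MEF (median 0.42) and 6 and 3 in LC against MEF (median 0.45). The latter median was 0.26 without MEF replicate 2 and 0.65 without MEF replicate 1. With quantile normalization, 5 were lower in LC against MEF. No more than 1 of the 2 lower in CiLC was called without CiLC replicate 1 or MEF replicate 2, and 0 with the coefficient set to 0.1. The secreted glycoprotein gene Stc2 rose from MEF to CiLC to LC, at 5.04 ± 0.0855, 13.9 ± 1.22 and 27.9 ± 0.446 CPM, and the AP-1 repressor Jdp2 fell, at 59.6 ± 0.587, 47.2 ± 1.54 and 22.9 ± 1.98 CPM. The enzymes around Asns split. Of 12 genes of amino acid synthesis and one-carbon metabolism, 2 rose and 5 fell in CiLC against MEF (median -0.01), and 7 rose and 5 fell in LC against MEF (median 0.46). The counts in CiLC were 1 and 2 with DESeq2, 1 and 1 with the coefficient set to 0.1 and 2 and 3 without CiLC replicate 2. The higher count there was 1 without CiLC replicate 1, MEF replicate 1 or MEF replicate 2. Phgdh, the first enzyme of serine synthesis, was lower in both CiLC and LC, at 62.2 ± 1.86, 39.9 ± 1.28 and 38.3 ± 1.44 CPM, and the transaminase gene Gpt2 higher in both, at 29.1 ± 1.03, 39.5 ± 1.39 and 45.9 ± 1.82 CPM. Mthfd1l, a mitochondrial folate enzyme, was higher in LC, at 18.7 ± 0.0171, 18.7 ± 1.07 and 113 ± 2.05 CPM. Of 8 amino acid transporters, 4 rose and 4 fell in CiLC against MEF, and 4 rose and 3 fell in LC against MEF. The higher count in CiLC was 2 with DESeq2 or without MEF replicate 1, and the counts were 2 and 2 with the coefficient set to 0.1. The glutamine carrier Slc1a5 was higher in both, at 47.2 ± 2.42, 83 ± 2.24 and 128 ± 5.25 CPM, and the cationic amino acid carrier Slc7a3 lower in both, at 8.7 ± 0.0672, 3.23 ± 0.89 and 1.25 ± 0.358 CPM. Of 12 cytosolic tRNA synthetases, 3 rose and 3 fell in CiLC against MEF and 5 rose and 5 fell in LC against MEF, where upper quartile scaling gave 2 and 5, DESeq2 3 and 5, leaving out LC replicate 2 gave 3 and 4, and quantile normalization 0 and 6. The lower count in CiLC was 1 without CiLC replicate 2 or MEF replicate 1. With the coefficient set to 0.1 the synthetases gave 0 and 1, and 0 and 0.

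Around Hspa5, 6 of 17 chaperones and folding enzymes of the ER rose and 1 fell in CiLC against MEF (median 0.10), and 8 rose and 5 fell in LC against MEF (median 0.03). With quantile normalization these were 10 and 1, and 6 and 6, and CiLC against LC went from 6 higher and 8 lower to 10 and 4. With the coefficient set to 0.1 the counts against MEF were 3 and 1 in CiLC and 6 and 1 in LC. The oxidase gene Ero1a, which hypoxia also induces, rose from MEF to CiLC to LC, at 124 ± 6.94, 206 ± 7.91 and 908 ± 19.9 CPM. The disulfide isomerase gene Pdia5 was lowest in CiLC, at 63.4 ± 0.17, 22.9 ± 0.2 and 51.6 ± 0.427 CPM, and Ero1b lowest in LC, at 26 ± 0.352, 26.8 ± 0.82 and 15.5 ± 0.495 CPM. Around Herpud1, 7 of 15 genes of ER-associated degradation rose and 2 fell in CiLC against MEF, and 8 and 2 in LC against MEF. With the coefficient set to 0.1 these were 1 and 0, and 4 and 2, and the lower count in CiLC was 1 without CiLC replicate 1 or MEF replicate 2. Selenos, of the export complex, was highest in CiLC like Herpud1, at 29.1 ± 0.371, 41.6 ± 0.831 and 33.5 ± 2.2 CPM. The lectin Edem1 was lowest in LC, at 221 ± 1.62, 191 ± 1.69 and 142 ± 4.6 CPM.

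Of 14 genes of ER entry and secretory transport, 9 rose and none fell in CiLC against MEF (median 0.19), and 14 rose in LC against MEF (median 0.37; 13 with upper quartile scaling and 12 with quantile normalization, none lower). In CiLC 3 were still called with the coefficient set to 0.1 and in LC 10, and with 0.4 none in either. The background was 26.1% of genes higher in CiLC and 35.7% in LC. The translocon subunit Sec61g stood at 5.74 ± 1.3, 9.07 ± 1.16 and 8.09 ± 1.11 CPM and Sec61b at 20.7 ± 1.47, 23.1 ± 1.16 and 35 ± 0.825 CPM. Between CiLC and LC, 9 were lower and none higher, which became 4 lower and 2 higher with upper quartile scaling and 4 and 3 with quantile normalization. It was 4 lower and none higher with the coefficient set to 0.1. Of 9 cytosolic heat shock genes, 3 rose and 2 fell in CiLC against MEF, and 5 and 3 in LC against MEF, where upper quartile scaling gave 4 and 4. Of 8 mitochondrial chaperones and proteases, 3 rose and none fell in CiLC against MEF, and 4 and 2 in LC against MEF, where upper quartile scaling gave 2 and 3, DESeq2 2 and 1, and the coefficient set to 0.1 gave 2 and 0. Without LC replicate 2 these were 2 and 1, without MEF replicate 2 they were 2 and 2, and without MEF replicate 1 they were 4 and 1.

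**Figure D4:**
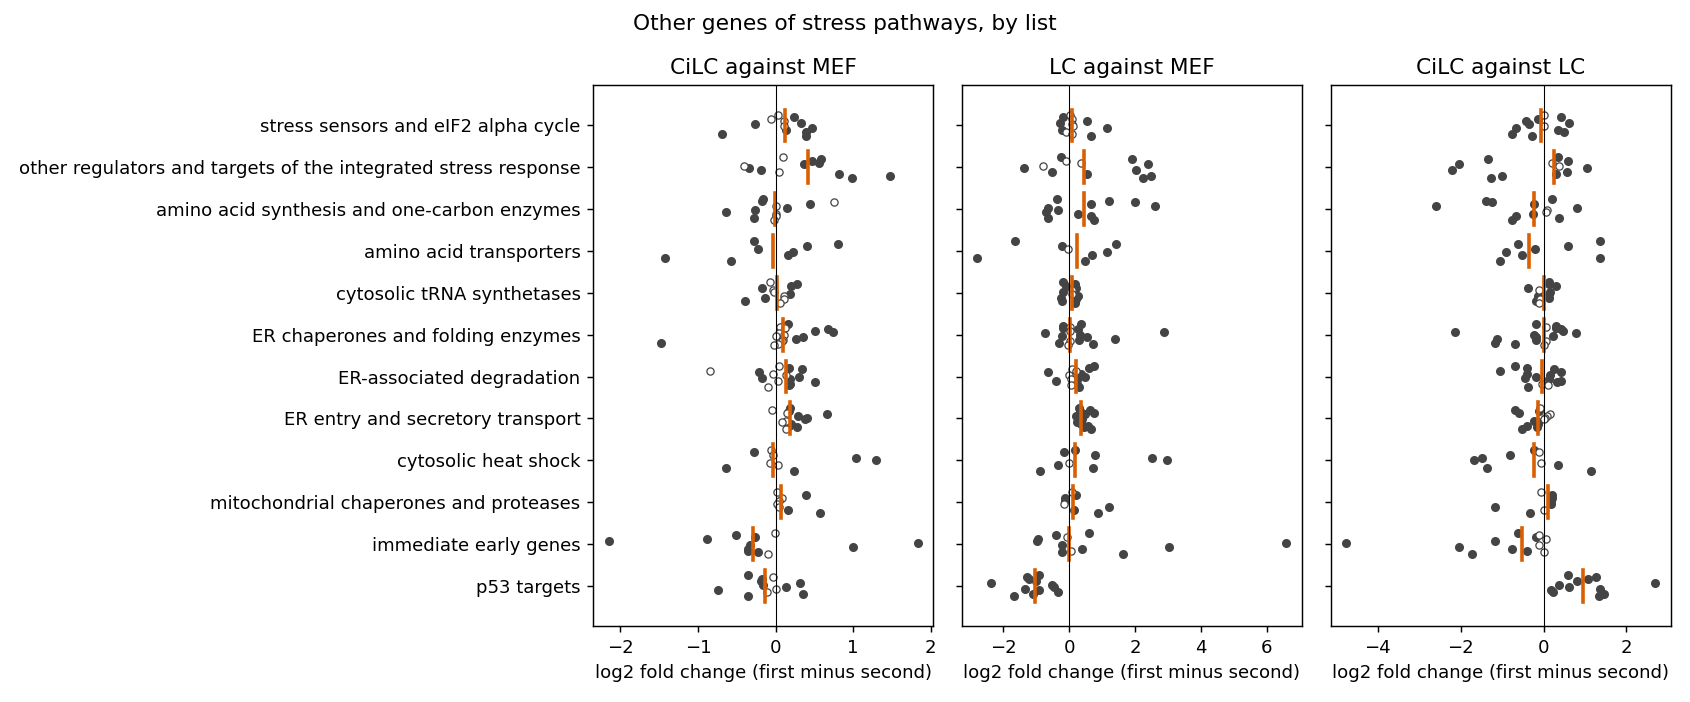
Log2 fold change (x axis, first group minus second; the scale differs between panels) of each gene of the 12 lists, filled where called and open where not, with the median of each list as an orange bar. The medians of most lists lie near 0, those of the p53 targets at -1.05 in LC against MEF and 0.94 in CiLC against LC.

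For the immediate early genes and p53 targets below, the background was 26.1% of all genes higher and 25.5% lower in CiLC against MEF. It was 35.7% and 35.0% in LC against MEF, and 35.0% and 35.6% in CiLC against LC. Atf3 is an immediate early gene as well as a stress gene. Of 12 other immediate early genes, 8 fell and 2 rose in CiLC against MEF (median -0.29), while 5 fell and 5 rose in LC against MEF. With the coefficient set to 0.1, 4 fell in CiLC and 3 in LC. Fosb was lower in CiLC and LC than in MEF like Atf3, at 818 ± 19.8, 184 ± 9.42 and 418 ± 50.5 CPM. Fosl1 was higher in both, at 0.418 ± 0.224, 1.5 ± 0.607 and 40.8 ± 4.32 CPM. Between CiLC and LC, 8 of the 12 were lower in CiLC and none higher (median -0.51). Fosb was lower there too (log2 fold change -1.18), while Atf3 was higher in CiLC than in LC (0.75). Whether the fall of Atf3 is part of these changes was not tested. Gdf15 is also a p53 target. Of 12 other p53 targets, 12 were lower in LC than in MEF and 12 higher in CiLC than in LC, while 6 fell and 3 rose in CiLC against MEF. With the coefficient set to 0.1, 12 were called lower in LC than in MEF, 10 higher in CiLC than in LC, and 1 fell and none rose in CiLC against MEF. With 0.4, 2 were called lower in LC than in MEF and 1 higher in CiLC than in LC. Eda2r stood at 37.6 ± 2.77, 46.6 ± 1.75 and 7.22 ± 0.284 CPM, Trp53inp1 at 134 ± 6.07, 171 ± 12.5 and 62.6 ± 2.4 CPM and Plk2 at 168 ± 3.77, 101 ± 1.07 and 88.2 ± 2.02 CPM. Gdf15 did not follow this order, since it was lowest in CiLC and not called between LC and MEF.

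The genes nearest in pattern to the members with the widest range of group means were taken by distance of centred log2 CPM over the 6 libraries, among 9925 genes of at least 10 CPM on average. For Atf3 they were Piezo2, Kcnj10 and Cthrc1 (distance 0.198, 0.254 and 0.255), with Piezo2 at 164 ± 5.86, 42.3 ± 2.51 and 28.5 ± 0.883 CPM. For Gdf15 they were Vamp5, 2310022B05Rik and Dbn1 (0.109, 0.251 and 0.254), with Vamp5 at 12.1 ± 0.578, 5.43 ± 0.777 and 12.5 ± 0.0734 CPM.

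Totals were 18.4 to 18.9 M estimated reads per library, so the members other than Gdf15 had at least 256 reads in every library. Markers of the labels were read beside them. The calls of markers stand beside 26.1% of all genes higher and 25.5% lower in CiLC against MEF. These shares were 35.7% and 35.0% in LC against MEF, and 35.0% and 35.6% in CiLC against LC. In LC, Star, Cyp11a1 and Nr5a1 stood at 182.0, 705.3 and 165.5 CPM, but the defining Leydig genes Cyp17a1 and Lhcgr had at most 1 and 3 reads per library in LC. The 7 Leydig markers summed to 7.55 to 9.42 CPM in MEF, 144 to 148 in CiLC and 1081 to 1109 in LC. The 6 fibroblast markers summed to 27910 to 28780 CPM in MEF, 29740 to 30000 in CiLC and 27140 to 27850 in LC. Most of each sum was collagen RNA, and single markers differed. Of the 6, 4 rose and 2 fell in CiLC against MEF, and 3 rose and 3 fell in LC against MEF. In the order MEF, CiLC, LC, Col1a1 stood at 13370, 7329 and 8982 CPM. Pdgfra stood at 302.5, 943.2 and 1787 CPM and Thy1 at 395.2, 816.6 and 5.73. Of 8 macrophage markers, 3 rose and 4 fell in CiLC against MEF, 1 rose and 6 fell in LC against MEF and 8 were higher in CiLC than in LC. They summed to 6583 to 6690 CPM in MEF, 10060 to 10260 in CiLC and 3457 to 3787 in LC, with none at 0. Most of the sum in CiLC was Lyz2, at 2660, 7571 and 2554 CPM in MEF, CiLC and LC. Adgre1, at 166.5, 367.4 and 184.0 CPM, and Ptprc, at 160.7, 198.0 and 68.4, were also higher in CiLC than in MEF. The 4 that fell in CiLC against MEF include Cx3cr1 at 590.3, 80.8 and 39.6 CPM and C1qb at 474, 150.5 and 80.4. The higher sum in CiLC than in MEF is thus not shared by all 8 markers. The 4 peritubular and smooth muscle markers were all lower in CiLC than in MEF (summed 1153 to 1230 CPM in MEF, 108 to 112 in CiLC and 483 to 490.3 in LC), and none was at 0. Of 6 Sertoli cell markers, 5 were higher in LC than in MEF (summed 17.3 to 18.8 CPM in MEF, 35.3 to 37.9 in CiLC and 301 to 302 in LC), with Rhox5 at 0 in MEF. Of 4 endothelial markers, 2 were higher and 1 lower in CiLC against MEF, and also 2 and 1 in LC against MEF. They summed to 23.4 to 23.8 CPM in MEF, 9.21 to 9.43 in CiLC and 68.1 to 76.2 in LC. The equal counts do not mean equal patterns. In the order MEF, CiLC, LC, Pecam1 stood at 0.47, 0.203 and 1.37 CPM and Tek at 0.261, 1.78 and 0.497. These 2 had few reads, at most 24 and 35 per library. Most of the sum in LC was Cdh5, at 3.58, 4.83 and 60.5 CPM in that order. Most of the sum in MEF was Kdr, at 19.25, 2.52 and 9.76 CPM. The 5 germ cell markers summed to at most 10.4 CPM, with Tex101 at 0 in MEF. The part of these cells in the differences of the 10 stress genes was not tested, and in bulk RNA fewer cells of a type and less RNA per cell cannot be told apart.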

How the data were processed

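The deposited values were expected counts, that is estimated reads per gene, per the file headers. The submitters' processing notes name HISAT and the build mm9. No source used here names the counting tool, the annotation or the strand setting, and 32.4% to 32.8% of the values of a library were not whole. NCBI gene numbers were matched to symbols for 18179 of 18305 genes with a RefSeq table of GRCm38.p6, used for names, overlapping genes and promoters only. Groups and replicate numbers came from the sample titles.

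Counts were rounded to whole numbers for edgeR (version 4.0.16, R 4.3.3): filterByExpr with a minimum count of 10 and minimum total of 15 (14581 genes kept), trimmed mean of M values scaling, and a quasi-likelihood fit of all 6 libraries with group as the only term. P-values are two-sided and adjusted by Benjamini-Hochberg over all genes tested, and a gene is called at 0.05. The fit adds a prior count of 0.125 to log2 fold changes, and SE come from the fitted weights and moderated dispersion. CPM use the scaled library sizes. The common biological coefficient of variation was 3.16%. The libraries of a group differed by more than counting noise (chi-square per degree of freedom 1.80 to 2.94), so none was treated as a copy of the other. This does not show separate cultures. On counts simulated for CiLC against MEF (13868 genes), 38% of genes changed by 1.2-fold, 88% by 1.5-fold, 84% by 2-fold and 98% by 4-fold were recovered, with 6 false calls. The simulation took the dispersion fitted to these same libraries and changed 50 genes at each fold. In the data, 51.6% of genes were called. The recovery and the false calls therefore hold for that dispersion and that number of changed genes only.

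The members and lists were chosen with earlier results of these data known, and lists are given as counts with no set test. The rule for named genes took the 10 members, for each list and comparison the 2 called genes with the largest change in each direction, and the 3 genes nearest in pattern to the 2 members of widest range. Of these list genes, values are printed for the one with the largest change in each direction against MEF, and tRNA synthetases, heat shock and mitochondrial genes are given by counts, a restriction made after the values were seen. A gene that the rule took is not reported here. Alternatives were other scalings, DESeq2 1.42.0, limma 3.58.1 (voom with quantile normalization), no filter, only the 4 libraries compared, a replicate block, an assumed coefficient of variation of 0.1 or 0.4, and each library left out.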

Additional observations from a re-analysis of the deposited data

How the results depend on the processing

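Of 450 values of single members under 15 other settings, 396 kept their direction and their side of the threshold. Another 44 kept their direction but lost their call, and 10 changed sign. Among those that changed sign, Atf4 in CiLC against LC also lost its call with quantile normalization. Hspa5 in LC against MEF gained one with it. The sign changes were those of Trib3 in CiLC against MEF (-0.007 without CiLC replicate 1 and -0.014 without MEF replicate 2), Hspa5 in LC against MEF (-0.084 with upper quartile scaling, -0.276 with quantile normalization, -0.039 without MEF replicate 2 and -0.011 without LC replicate 1), Gdf15 in LC against MEF (0.079 without MEF replicate 1), Atf4 in CiLC against LC (0.02 with quantile normalization) and Ddit3 in CiLC against LC (-0.003 with relative log expression scaling and -0.017 without LC replicate 1). With single libraries left out, the other ends of the ranges were 0.069, 0.064, -0.13 and 0.027 for Trib3, Hspa5, Gdf15 and Ddit3. The cause of these sign changes was not tested. With an assumed coefficient of variation of 0.1, members higher in CiLC than in MEF went from 5 to 0 and members lower in CiLC than in LC from 4 to 2. Genes of the wider lists went from 55 higher and 35 lower to 24 and 12 in CiLC against MEF, from 48 to 29 lower in LC against MEF and from 51 to 30 higher in CiLC against LC. With 0.4, 0 members were higher and 1 lower in CiLC against MEF, 0 and 1 in LC against MEF, and 0 and 0 in CiLC against LC. The wider lists then had 0 and 1, 12 and 4, and 1 and 8. With single libraries left out, members called higher and lower ranged from 4 to 5 and 4 to 4 in CiLC against MEF, 2 to 2 and 6 to 6 in LC against MEF, and 4 to 5 and 3 to 4 in CiLC against LC. Where a group then had 1 library, it was assumed to vary like the others. Upper quartile scaling moved the median of all genes by -0.1 in LC against MEF.

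The replicate numbers did not pair the libraries: deviations of same-numbered libraries correlated at 0.009, 0.054 and -0.073 between groups. With the replicate number as a block, 5 members were higher and 4 lower in CiLC against MEF, 2 members were higher and 6 lower in LC against MEF and 5 members were higher and 4 lower in CiLC against LC, and no member changed its call.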
